A study of Mus musculus with 15 samples.

Results

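The 45 genes described here encode proteins of the cytosolic ribosome, 21 of its small and 24 of its large subunit. They were chosen by symbol alone: every gene named Rps or Rpl with a number, the stalk proteins Rplp0 to Rplp2, Rpsa, and the Rps and Rpl paralogs, without Rps6 kinase genes and without pseudogenes. They are 45 of the 18193 genes that the array measures with at least 1 probe set assigned to a single gene. A gene with several such probe sets was read from the one that was brightest on average over the 15 arrays. RefSeq lists 81 symbols of this form that are not pseudogenes. Of the 36 that are not included, 28 lie on probe sets listed under several genes, among them Rplp1, Rpl5 and Rpl10, and 8 were not analysed here, among them Rps27a.

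RNA was measured in GFP-labelled interneurons of the primary somatosensory cortex of G42 mice, a transgenic line in which Gad1 regulatory sequence drives GFP in fast-spiking, parvalbumin-class interneurons. The 5 groups were G42 mice at postnatal day (P) 7, 10, 15, 25 and 40, the oldest group spanning P40 to P45, with 3 animals and 3 arrays per age. All groups carried the same transgene, and no group received a treatment other than the protease step used to dissociate the slices. Cells were picked by hand, 23 to 85 per animal, and their RNA was amplified in 2 rounds with T7 polymerase and hybridized to an Affymetrix whole-genome mouse array.

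Ribosomal proteins assemble on ribosomal RNA in the nucleolus into a small subunit, which binds and decodes the messenger, and a large subunit, which joins the amino acids and releases the chain through an exit tunnel. Most of their messengers begin with a 5′ terminal oligopyrimidine (TOP) tract, a run of C and T at the start site through which the TOR kinase pathway and the RNA-binding protein Larp1 control their stability and translation. In neurons, ribosomes supply the protein for growing axons, dendrites and synapses, and ribosomal protein messengers are also found in axons.

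Levels are GCRMA values on the log2 scale, and 5 was taken as the limit between signal and background. Pvalb, the calcium-binding protein that defines the mature class, read 14.28 ± 0.20 at P40 and 3.62 ± 0.72 at P7 (SD, n = 3 each). Of 6 tested markers of these interneurons, Pvalb among them, 5 rose between P40 and P7 and 1, Lhx6, fell. Lhx6 read 11.28 ± 0.09 at P40 and 12.115 ± 0.21 at P7, and Gad1 read 14.98 ± 0.14 at P40 and 13.88 ± 0.46 at P7. All 4 measured markers of excitatory neurons, all 3 of endothelial cells and all 3 of cycling cells were at or under 5 on every array. The summed level of 5 astrocyte markers ran from 4.96 to 5.18 at P40 and from 5.28 to 7.03 at P7, and that of 5 microglial markers from 5.95 to 6.14 at P40 and from 6.49 to 7.49 at P7. At P10, P15 and P25 the astrocyte sum ran from 5.11 to 7.51. Of these, 2 astrocyte markers were tested and 0 passed, and the 1 tested microglial marker, Csf1r, fell (3.28 ± 0.07 at P40 and 5.11 ± 0.92 at P7). Replicates 2 and 3 of P15 stood apart, with hybridization control medians of 2.503 and 2.453, against 9.28 to 12.7 on the other arrays. The 3′ minus 5′ signal of the beta-actin controls, which grows as the amplified RNA gets shorter, averaged 3.93 ± 0.55 at P40 and 5.77 ± 0.98 at P7. The astrocyte sum, the microglial sum and the actin value were lower at P40 than at P7, as were the ribosomal protein genes. At P10, P15 and P25 the actin value averaged 5.73, 4.50 and 5.31. Counts with this value in the fit are given below, and its part as a cause was not tested. The part of the marker genes in the results was not tested. Of 4 measured oligodendrocyte markers, Mog and Mag were at or under 5 on every array and Mbp and Mobp, which encode myelin proteins, were tested. The summed level of the 4 ran from 6.65 to 7.52 at P7, from 7.39 to 8.46 at P10, from 7.36 to 9.03 at P15, from 10.58 to 11.71 at P25 and from 5.87 to 7.96 at P40. Both tested markers rose between P25 and P15 (log2 differences 2.99 for Mbp and 4.33 for Mobp, adjusted p = 0.0142 and 6.13e-05) and fell between P40 and P25 (-4.68 and -4.48), and neither passed between P40 and P7.

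The ribosomal protein genes were lower in interneurons of P40 mice than in those of P7 mice. Between P40 and P7, 31 of the 41 tested genes fell, 10 did not pass the test and 0 rose (limma with Benjamini-Hochberg adjustment over 9663 genes, adjusted p under 0.05; at an unadjusted p under 0.05, 32 were lower and 0 higher). Of all genes tested, 17.6% fell and 27.5% rose in the same comparison. At the unadjusted limit 1995 of the 9663 were lower and 3056 higher. After scaling each array to the same median, 34 of the 41 fell while 22.8% of all genes did, and after quantile normalization 31 fell while 22.0% of all genes did. Without all P25 arrays, 31 fell between P40 and P7. Rps6 was tested only because of its P7 arrays, with 2 arrays over 5 at the other ages, and 30 of the other 40 fell; it is kept in the counts that follow. The median log2 difference of the 41 genes was -0.70, against 0.18 over all genes tested, and 39 of the 41 differences were below 0. Over all 9663 genes, 4195 differences were below 0. With the actin ratio in the fit, 25 genes fell and 0 rose, 24 of the 31 kept their call, and 13.3% of all genes fell. Array values are relative and come from pooled cells, so fewer labelled cells of a kind with high levels and less of this RNA per cell cannot be told apart.

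**Figure D1:**
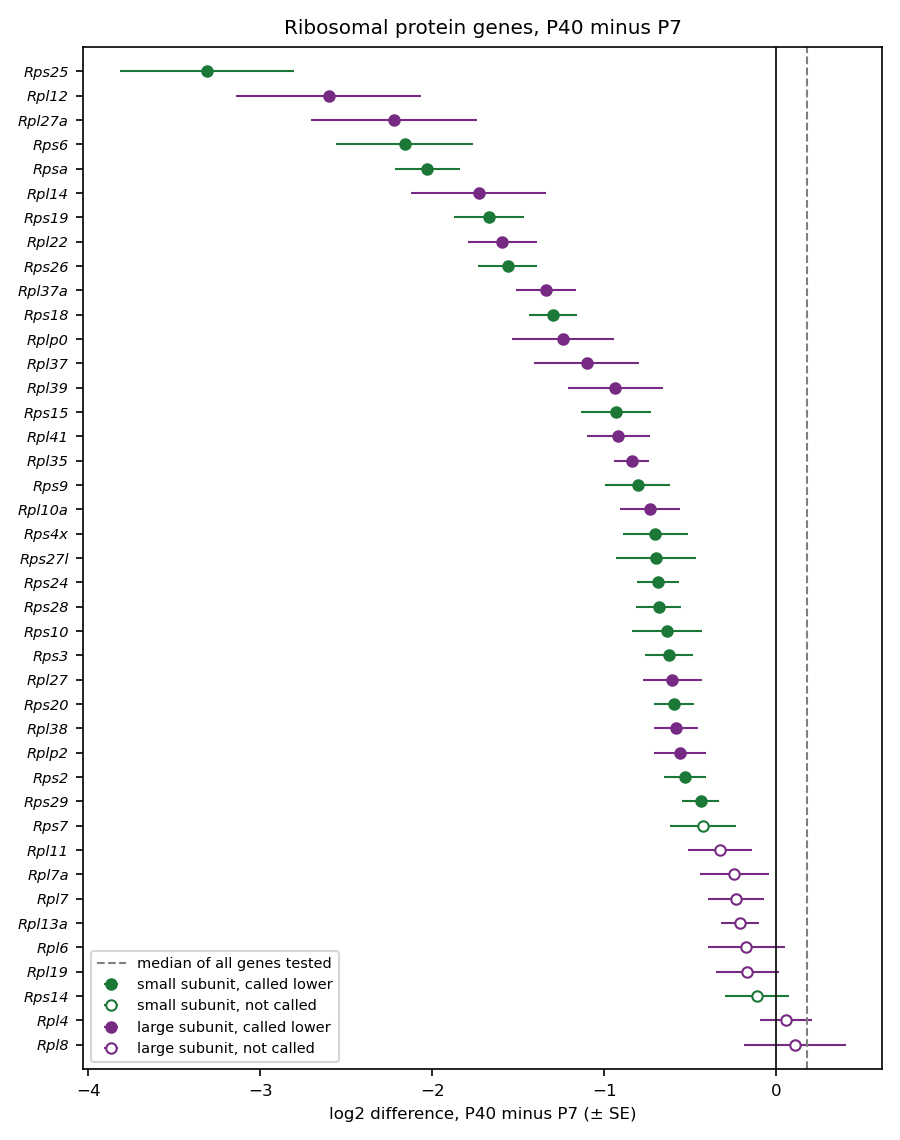
Log2 difference between P40 and P7 for each of the 41 tested ribosomal protein genes, with its standard error; green marks small and purple large subunit genes, filled points passed the test and open points did not. The differences run from -3.31 for Rps25 to 0.11 for Rpl8, and the dashed line is the median of all genes tested, 0.18.

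In both subunits most tested genes fell, 17 of 19 in the small subunit (median -0.70) and 14 of 22 in the large subunit (median -0.67). The difference between the subunits was not tested. The 31 falls had a median of -0.92, the smallest being -0.44 for Rps29, and 13 of them were at least 1 on the log2 scale, a 2-fold fall. Their adjusted p ran from 1.4e-06 to 0.0245. On 32 of the 41 genes every P40 array lay under every P7 array, against 22.6% of all genes tested. Those 32 were the 31 that fell and Rpl13a. The falls not described singly below lay between -1.10 for Rpl37 and -0.44 for Rps29. The other 4 of the 45 genes, Rps16, Rps27, Rpl3l and Rpl39l, passed the limit of 5 on no array and were not tested. Of the 41, 39 exceeded 5 on all 15 arrays.

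Start-site windows of the 12 genes with the largest falls are shown because a pyrimidine tract at the start is the feature these messengers are known for. Windows of 4 genes that did not pass the test, Rpl13a, Rpl4, Rps7 and Rpl11, follow for comparison; adding these 4 was decided after their values were seen. The windows are RefSeq sequence on GRCm38.p6, 15 bases before and 15 bases from the annotated start on, read in the direction of transcription. Capitals mark a run of at least 7 C or T that touches the stretch between 5 bases before and 10 bases after the start.
Rps25 (chr9:44407699-44407728, plus strand): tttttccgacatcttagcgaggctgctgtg
Rpl12 (chr2:32961697-32961726, plus strand): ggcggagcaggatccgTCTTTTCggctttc
Rpl27a (chr7:109519180-109519209, plus strand): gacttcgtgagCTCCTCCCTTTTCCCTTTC
Rps6 (chr4:86857353-86857382, minus strand): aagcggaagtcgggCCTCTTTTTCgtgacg
Rpsa (chr9:120127751-120127780, plus strand): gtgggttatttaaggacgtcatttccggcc
Rpl14 (chr9:120571502-120571531, plus strand): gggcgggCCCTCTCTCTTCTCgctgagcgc
Rps19 (chr7:24884577-24884606, plus strand): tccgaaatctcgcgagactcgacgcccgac
Rpl22 (chr4:152325711-152325740, plus strand): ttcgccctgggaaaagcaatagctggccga
Rps26 (chr10:128626492-128626521, minus strand): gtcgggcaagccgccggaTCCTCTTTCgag
Rpl37a (chr1:72711245-72711274, plus strand): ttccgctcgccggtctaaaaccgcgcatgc
Rps18 (chr17:33955651-33955680, minus strand): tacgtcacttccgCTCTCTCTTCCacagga
Rplp0 (chr5:115559452-115559481, plus strand): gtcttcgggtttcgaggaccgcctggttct
Rpl13a (chr7:45128731-45128760, minus strand): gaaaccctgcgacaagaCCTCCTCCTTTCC
Rpl4 (chr9:64173372-64173401, plus strand): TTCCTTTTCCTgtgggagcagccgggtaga
Rps7 (chr12:28635939-28635968, minus strand): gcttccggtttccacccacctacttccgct
Rpl11 (chr4:136053379-136053408, minus strand): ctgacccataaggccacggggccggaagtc
A run of this kind stood near the start of Rpl12, Rpl27a, Rps6, Rpl14, Rps26 and Rps18 among the strongest falls, and near the start of Rpl13a and Rpl4 among the genes that did not pass the test. It was missing from the windows of Rps25, Rpsa, Rps19, Rpl22, Rpl37a and Rplp0, and from those of Rps7 and Rpl11. This says only what these letters hold around the annotated start, which can differ from the start used in these cells.

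Over the 40 of the 45 genes with a promoter entry, 20 (50%) had such a run, against 16.2% of 27025 promoters. Among the tested genes, 15 of 18 with a run fell (median -0.77) and 14 of 18 without one fell (median -0.81). In the 300 bases from 250 before to 50 after the start, on both strands, CCGGAAG, the core of an ETS-type site, stood in 20 of the 40 promoters (50%) and in 9.12% of all promoters. GGGCGG, the GC box, stood in 52.5% of the 40 and in 35.9% of all. The E-box CACGTG stood in 7.5% of the 40 and 7.24% of all, and AAGATGGC, the YY1 core, in 5% of the 40 and 2.88% of all. Each motif was searched on its own, so matches of different motifs can overlap, and a match describes letters only.

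Rpsa, a small subunit protein also known as a laminin receptor, had the smallest p of the family. It read 11.84, 11.98 and 12.09 at P40, against 13.66, 14.28 and 14.05 at P7, a difference of -2.03 ± 0.19 (SE) and a 4.08-fold fall (limma, adjusted p = 1.4e-06). The groups did not overlap, and the P10 mean of 13.36 and the P15 mean of 12.67 lay between them. Rps19, a small subunit protein needed for maturation of the small ribosomal RNA and the gene most often mutated in Diamond-Blackfan anaemia in humans, read 11.71, 12.13 and 11.85 at P40 and 13.46, 13.78 and 13.46 at P7. Its fall was 3.19-fold (log2 difference -1.67 ± 0.20 (SE), adjusted p = 1.5e-05), again with no overlap.

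Rps25, a protein of the small subunit's head that takes part in initiation at internal ribosome entry sites, showed the largest fall of the 41. It read 8.16, 7.66 and 7.98 at P40, against 10.74, 11.48 and 11.50 at P7. The log2 difference was -3.31 ± 0.51 (SE), a 9.92-fold fall (adjusted p = 0.000113). All P40 arrays were low and all P7 arrays high, while the 3 arrays of P10 were spread between 8.45 and 10.88.

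Rps26, which lies beside the exit of the messenger, read 11.10, 11.77 and 11.69 at P40 and 13.14, 13.12 and 12.99 at P7, a 2.95-fold fall (-1.56 ± 0.17 (SE), adjusted p = 5.59e-06). Rps18, a protein of the small subunit's head, read 12.70, 13.11 and 12.99 at P40 and 14.17, 14.16 and 14.37 at P7, a 2.46-fold fall (-1.30 ± 0.14 (SE), adjusted p = 4.62e-06). For both genes the lowest P7 array lay above the highest P40 array. Rps6, the substrate of the S6 kinases and a common readout of TOR activity, had a dim probe set that exceeded 5 on 5 of 15 arrays. It read 4.10, 4.59 and 3.898 at P40, all background, against 5.83, 6.54 and 6.71 at P7, so its level was at least 2.56-fold lower; as the P7 arrays decided that it was tested, these values are a description. Rps4x, the X-linked form of a small subunit protein, read 12.90, 13.004 and 13.22 at P40, against 13.94, 14.01 and 13.29 at P7, a 1.63-fold fall (adjusted p = 0.00755). Its P7 replicate 3 lay close to the P40 arrays, without overlap.

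**Figure D2:**
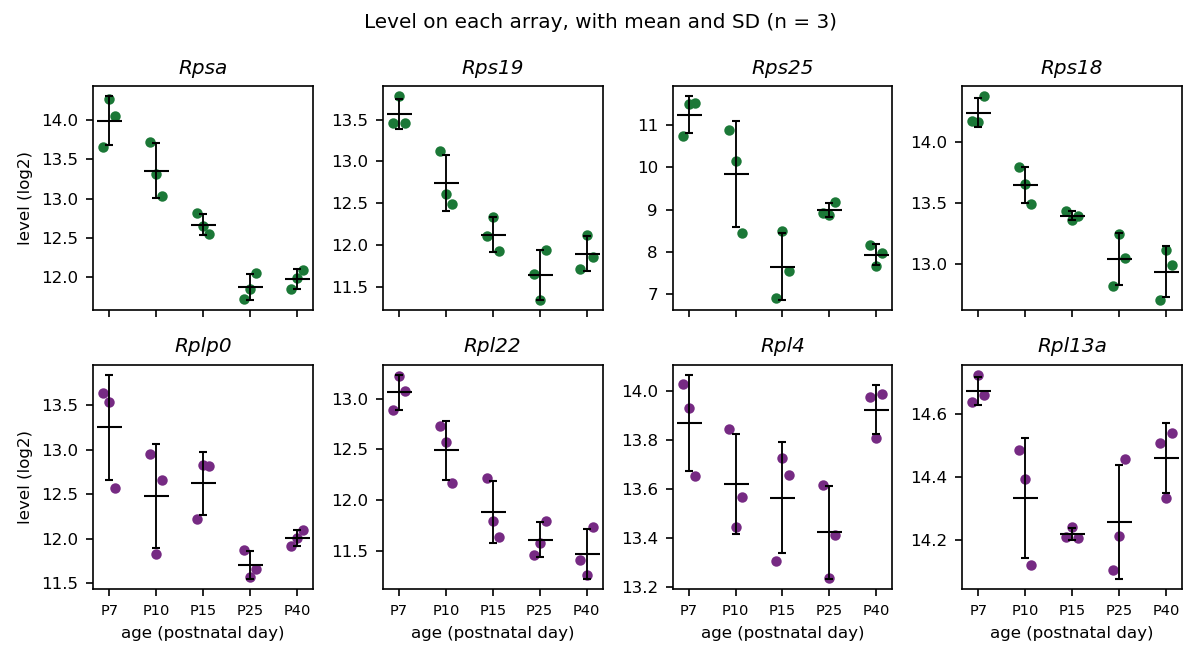
Level of 8 ribosomal protein genes on each of the 15 arrays (points, log2 scale, each panel with its own axis), with the mean and SD of 3 arrays per age in black; green panels are small and purple panels large subunit genes. Rpsa, Rps19, Rps25, Rps18, Rplp0 and Rpl22 fell between P40 and P7, whereas Rpl4 and Rpl13a did not pass the test, and the P40 arrays of Rpl4 lay among its P7 arrays.

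The stalk of the large subunit, which recruits the translation factors that hydrolyse GTP, is built on Rplp0 with copies of Rplp1 and Rplp2. Rplp0 read 11.92, 12.004 and 12.10 at P40, against 13.64, 13.54 and 12.57 at P7, a 2.36-fold fall (log2 difference -1.24 ± 0.30 (SE), limma adjusted p = 0.00346). Rplp2 read 14.17, 14.002 and 14.12 at P40, against 14.79, 14.30 and 14.88 at P7, a 1.47-fold fall (adjusted p = 0.00776). Both measured stalk genes thus fell with no overlap, although P7 replicate 3 of Rplp0 and P7 replicate 2 of Rplp2 lay nearest to the P40 arrays. Rpl12, which sits at the base of the stalk, read 3.18, 5.05 and 4.75 at P40, against 7.50, 6.85 and 6.44 at P7 (adjusted p = 0.00124). Its P40 mean of 4.33 is under the limit of 5, so levels alone are given, and the ages did not overlap.

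Of 9 genes listed for proteins around the exit of the tunnel, 4 were measured and tested, and 3 of them fell: Rpl39, Rpl35 and Rpl38. Rpl19 did not pass the test, with a log2 difference of -0.17. Rpl39, a small protein inside the tunnel, read 8.08, 8.17 and 8.17 at P40, against 8.63, 9.37 and 9.24 at P7, a 1.91-fold fall (adjusted p = 0.0122). The call for Rpl39 was lost with the actin ratio in the fit (log2 difference -0.81), with the number of picked cells in the fit (-0.73) and without P7 replicate 2 (-0.79). Rpl35, at the tunnel's mouth, read 13.73, 13.81 and 13.78 at P40, against 14.56, 14.54 and 14.74 at P7, a 1.79-fold fall (adjusted p = 1.45e-05). The 3 arrays of each age lay close together for Rpl35, with SDs of 0.04 at P40 and 0.11 at P7.

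Rpl22, an RNA-binding protein of the large subunit with a role in lymphocyte development, read 11.41, 11.26 and 11.74 at P40, against 12.89, 13.23 and 13.08 at P7, a 3.02-fold fall (adjusted p = 2.06e-05). Rpl37a, a zinc-binding protein, read 12.44, 13.04 and 12.55 at P40 and 13.78, 14.10 and 14.17 at P7, a 2.53-fold fall (adjusted p = 2.9e-05). Neither gene overlapped between the ages. Rpl27a, whose mutation in mice gives darkened skin and anaemia, read 8.56, 8.49 and 8.91 at P40, against 10.35, 12.32 and 9.95 at P7, a 4.66-fold fall (adjusted p = 0.00181). P7 replicate 2 was the highest array, and without it the log2 difference was -1.50 in place of -2.22, and Rpl27a still passed the test. Rpl14, another protein of the large subunit, read 7.24, 6.22 and 6.68 at P40, against 8.54, 8.56 and 8.23 at P7, a 3.32-fold fall (adjusted p = 0.0024), whose call was lost with the actin ratio in the fit (log2 difference -1.39). Rpl41, the shortest ribosomal protein, read 13.49, 13.47 and 13.59 at P40, against 14.46, 14.65 and 14.19 at P7, a 1.89-fold fall (adjusted p = 0.000902). Read from its brightest plain _at probe set, Rpl41 fell by 2.67 on the log2 scale, in place of 0.92.

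The 10 genes that did not pass the test were 8 of the large and 2 of the small subunit, with differences from -0.43 to 0.11. Rpl4, a protein that lines the tunnel further in and is not on the list of its exit, read 13.98, 13.81 and 13.99 at P40, against 14.03, 13.93 and 13.65 at P7. Its log2 difference was 0.05, with a 95% interval of -0.27 to 0.38, and the ages overlapped. Rpl13a, which in human cells also acts in the silencing of inflammatory messengers, read 14.51, 14.34 and 14.54 at P40, against 14.64, 14.72 and 14.66 at P7, a difference of -0.21 (95% interval -0.45 to 0.03, limma adjusted p = 0.138). For Rpl7, a protein close to the 5S ribosomal RNA, the difference was -0.24 (95% interval -0.59 to 0.12).

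Rps7 and Rpl11, which both bind the p53 regulator Mdm2 when ribosome assembly is disturbed, had the largest differences among the 10. Rps7 read 13.33, 13.20 and 13.40 at P40, against 13.75, 14.06 and 13.40 at P7, a difference of -0.43 (95% interval -0.84 to -0.01, unadjusted; adjusted p = 0.0857). Rpl11, part of the particle that carries the 5S RNA, differed by -0.33 (95% interval -0.73 to 0.07, adjusted p = 0.161). In both genes P7 replicate 3 overlapped the P40 arrays. Without that array Rps7 passed the test with a difference of -0.59 and Rpl11 with one of -0.50, and both also passed after scaling to the median (-0.64 and -0.55).

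Of the paralogs with restricted or stress-linked expression, Rpl3l, the form of striated muscle, read between 2.90 and 4.71 and Rpl39l, the form of testis, between 2.49 and 3.34 over the 15 arrays, all background. Rps4l follows the naming rule but was left out of the family because RefSeq gives it a pseudogene type. It averaged 8.49 ± 0.15 at P40 and 7.90 ± 0.66 at P7 (SD). It did not pass the test (log2 difference 0.59, limma adjusted p = 0.364). Rps4l rose between P15 and P10 (log2 difference 2.195) and fell between P25 and P15 (-1.923). Both steps rest on P15, whose replicates 2 and 3 had background-level hybridization controls. Rps27l, a p53-inducible paralog of Rps27, read 8.87, 9.02 and 8.66 at P40, against 9.19, 9.77 and 9.68 at P7, a 1.62-fold fall with the largest adjusted p among the 31, 0.0245. Its call was lost under 8 of 29 other settings, with the actin ratio in the fit (log2 difference -0.37) among them, and on leaving out replicate 2 (-0.59) or 3 (-0.63) of P7, or replicate 1 (-0.71) or 3 (-0.60) of P40.

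Mean levels were highest at P7 for nearly all of the 41 genes and lowest at P25 for most. The median level of the 41 genes on an array averaged 13.54 ± 0.19 in P7 mice, 13.09 ± 0.20 in P10 mice, 12.94 ± 0.13 in P15 mice, 12.51 ± 0.14 in P25 mice and 12.84 ± 0.14 in P40 mice (SD, n = 3 each). The P25 arrays were lowest by this measure, and these are also the arrays with the highest oligodendrocyte marker levels (Mbp at 11.58, 11.56 and 10.48); the part of these markers in the result was not tested. By gene, 25 of the 41 genes had their lowest mean at P25, 13 at P40, 2 at P15 and 1 at P10. The highest mean was at P7 for 39 genes. Among the 31 that fell, the share of the difference between P40 and P7 that was reached by P15 had a median of 66.2% and ran from 21.9% for Rps27l to 108% for Rps25. The median rank of the 41 genes among all genes tested was the 97.66 ± 0.52 percentile on P7 arrays, 96.46 ± 0.73 on P10 arrays, 95.3 ± 0.67 on P15 arrays, 93.5 ± 0.87 on P25 arrays and 94.91 ± 0.73 on P40 arrays. The rank uses the same probe sets on every array and does not change when an array is scaled as a whole.

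**Figure D3:**
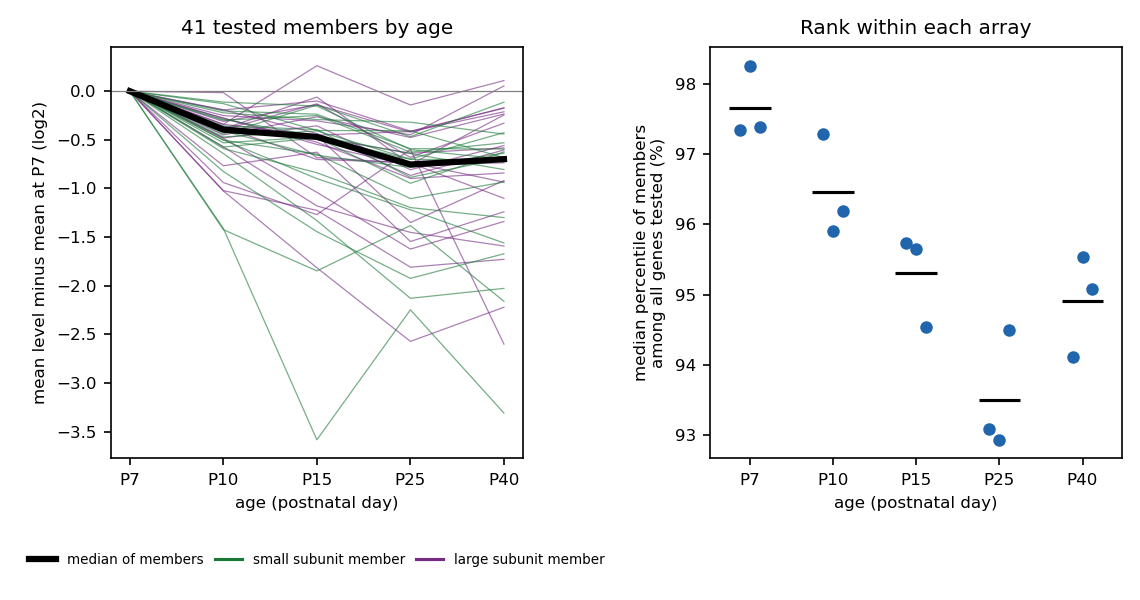
Left, mean level of each of the 41 tested genes at each age minus its own mean at P7 (log2), green for small and purple for large subunit genes, with the median of the genes in black. Right, the median percentile of the 41 genes among all tested genes on each array (points) and its mean per age (bars), which runs from 97.66 at P7 to a low of 93.5 at P25.

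Single steps between neighbouring ages passed the test for few genes. Between P10 and P7, Rps18, Rps19 and Rps3 fell (limma, log2 differences -0.59, -0.83 and -0.57, adjusted p = 0.0288, 0.0362 and 0.0337), 3 of 41, and 0 rose. Of all genes, 3.60% were called in this step, 1.23% lower and 2.37% higher. All 41 differences in this step were below 0, with a median of -0.40, against -0.03 over all genes tested, and 22 were lower at an unadjusted p under 0.05. Over all 9663 genes tested, 5076 differences were below 0 and 810 genes were lower at that unadjusted limit. Rps3, a small subunit protein at the messenger's entry, is named here because it was 1 of 3.

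Between P15 and P10, Rps25 (-2.17, adjusted p = 0.0175) and Rpsa (-0.69, adjusted p = 0.0327) fell, 2 of 41, and 0 rose. Of all genes, 11.4% were called, 2.79% lower and 8.57% higher. The median difference was -0.11, against 0.20 over all genes tested, and 28 of the 41 were below 0. Over all 9663 genes, 3642 were below 0. Without P15 replicates 2 and 3, the arrays with background-level hybridization controls, neither step at P15 held a call. Between P25 and P15, Rpl41 (-0.89, adjusted p = 0.0127), Rpsa (-0.80, adjusted p = 0.0265), Rps24 (-0.49, adjusted p = 0.0322) and Rpl35 (-0.37, adjusted p = 0.049) fell, 4 of 41, and 0 rose. Of all genes, 4.86% were called, 2.49% lower and 2.37% higher. The median difference of the 41 was -0.32, against 0.01 over all genes tested. Mbp and Mobp rose in the same step.

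Rpsa is the gene that fell in both of these steps, with means of 13.36 at P10, 12.67 at P15 and 11.87 at P25. Between P40 and P25 limma called 0 of the 41, against 0.673% of all genes (0.269% lower and 0.404% higher), and at an unadjusted p under 0.05 it held 2 lower and 4 higher. The median difference of this step was 0.15, against -0.02 over all genes tested, and 27 of the 41 were above 0. Over all 9663 genes, 4642 were above 0, and at the unadjusted limit 644 were lower and 466 higher. The smallest adjusted p belonged to Rpl12 (4.33 at P40 and 6.33 at P25, adjusted p = 0.108). By the F test over all 5 ages 33 of the 41 differed, against 47.2% of all genes. With 1 array left out, the counts of the steps up to P25 ran from 0 to 5, from 0 to 7 and from 0 to 6 in the order of age.

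Ribosomal protein genes have many processed pseudogene copies, and most of the family was read from probe sets whose probes can match more than 1 transcript. Of the 41 tested genes, 16 were read from an _x_at probe set, which the manufacturer marks for cross-hybridization to other sequences, against 6.22% of all genes tested. Another 15 were read from an _a_at probe set, which detects several transcripts of 1 gene, 1 from an _s_at probe set, which detects several genes or transcripts, and 9 from a plain _at probe set. Among the 16 _x_at genes 13 fell (median -0.65), among the 15 _a_at genes 9 (median -0.62) and among the 9 _at genes 8 (median -2.03). Genes of each kind fell, and the median was lowest among the 9 plain _at genes, Rps6 among them. Of all genes tested, whatever the suffix, 17.6% fell. Shares of all genes by suffix were not compiled, and the part of cross-hybridization was not tested.

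The plain _at probe sets were also dimmer, and the size of the difference went with the signal. The 7 genes with a mean under 10 over 15 arrays, Rps6 among them, were all called lower, with a median of -2.16 and a range of -3.31 to -0.70. That median is the value of Rps6, which was tested only because of its P7 arrays and differed by -1.36 with values under 5 set to 5. Among the 13 with means from 10 to 13, 8 fell (median -0.93), and among the 21 with means over 13, 16 fell (median -0.61). Across the 41 genes, which are not independent, the mean level and the difference had a Pearson r of 0.645 and a Spearman rho of 0.507. The part of signal saturation or of shared sequence in this relation was not tested.

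**Figure D4:**
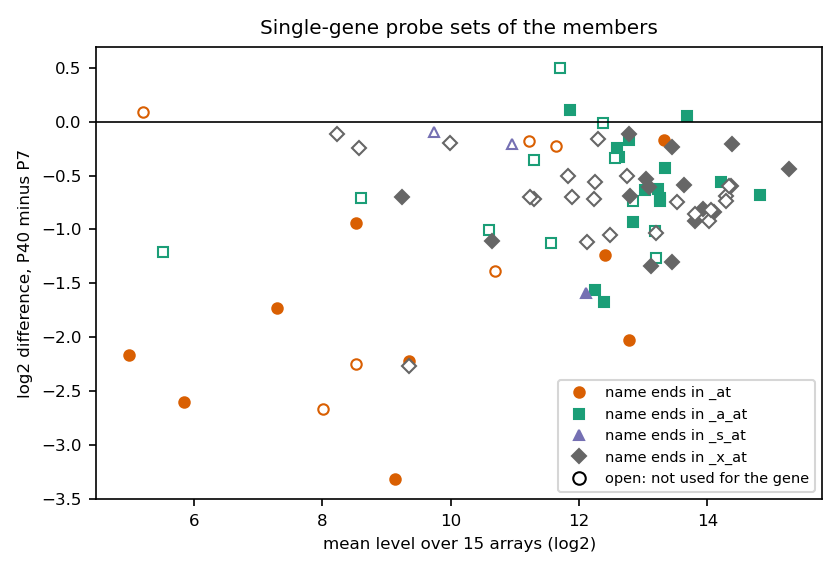
Log2 difference between P40 and P7 against the mean level over 15 arrays for the 82 single-gene probe sets of the ribosomal protein genes that passed the limit; shape and colour give the probe set's suffix, filled points were used for the gene and open points were not. Of the 82, 57 fell and 0 rose, and the differences of the _at probe sets used reach -3.31.

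Probe sets that were not used for a gene fell too. Of 41 further single-gene probe sets, 26 fell and 0 rose, with a median of -0.71 and a range of -2.67 to 0.50. Of 96 probe sets that list several genes with a ribosomal protein gene among them, 64 fell, 0 rose and 32 did not pass the test (median -0.63). Over all 15477 probe sets fitted, 16.2% fell and the median was 0.18. Within single genes the probe sets could disagree. For Rpl13a, the brightest did not pass the test, while others had differences of -0.70 (adjusted p = 0.00245), -1.13 (adjusted p = 0.000293) and 0.50 (adjusted p = 0.153). For Rpl22, the other probe sets differed by -1.39 (adjusted p = 0.000361) and by -0.09 (adjusted p = 0.853). For Rps18, both others fell, by 1.02 and 0.72 on the log2 scale.

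Other genes with TOP messengers were lower as well. Of 19 tested, 11 fell (57.9%) and 1 rose (5.26%), with a median of -0.57, against 17.6% and 27.5% of all genes. With the actin ratio in the fit 8 fell (42.1%) and 0 rose, against 13.3% and 14.2% of all genes. Eef1d, a subunit of the exchange factor for elongation factor 1, averaged 11.62 ± 0.18 at P40 and 12.86 ± 0.18 at P7 (log2 level, SD, n = 3 each, adjusted p = 0.000245), and Eif3f, a subunit of initiation factor 3, averaged 12.33 ± 0.11 at P40 and 13.13 ± 0.17 at P7 (adjusted p = 0.000286). The gene that rose was Eef1a2, the elongation factor 1 form of mature neurons and muscle, at 12.78 ± 0.34 at P40 and 11.56 ± 0.44 at P7 (adjusted p = 0.00993). Of 4 ribosomal protein genes whose symbols do not follow the naming rule, 1 fell, Rpl22l1, the paralog of Rpl22 (log2 difference -0.40, adjusted p = 0.0316), and with the actin ratio 0 did.

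**Figure D5:**
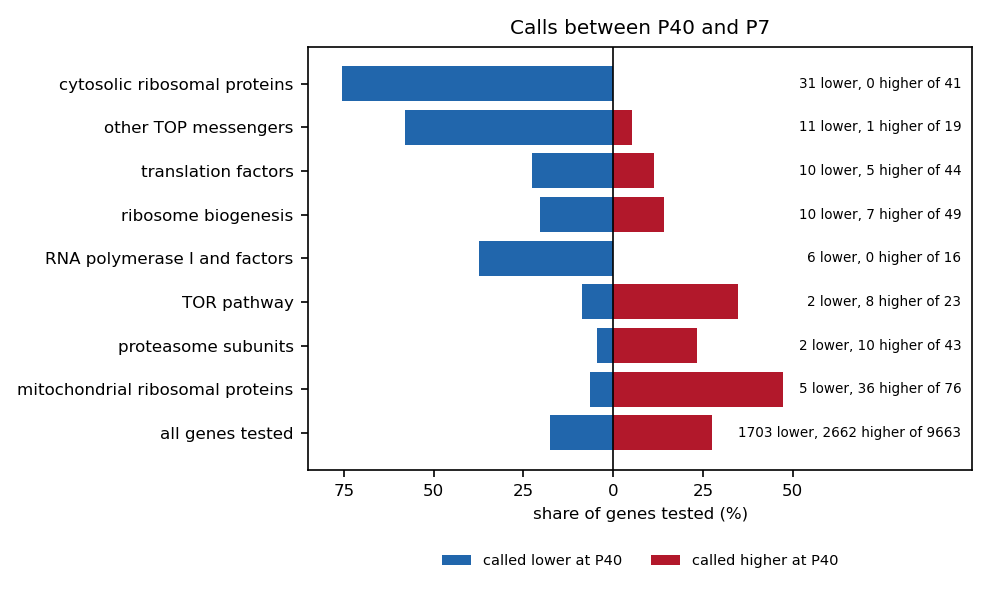
Share of tested genes that fell (blue, to the left) or rose (red, to the right) between P40 and P7 in each gene list, with the counts at the right. The cytosolic ribosomal protein genes stand at the top with 31 lower and 0 higher of 41, the mitochondrial ones near the bottom with 5 lower and 36 higher of 76, and all genes tested in the last row.

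Of 49 tested biogenesis genes 10 fell (20.4%) and 7 rose (14.3%), with a median of -0.04, against 17.6% and 27.5% of all genes. With the actin ratio 6 fell (12.2%) and 1 rose (2.04%), against 13.3% and 14.2% of all genes. In the main fit Nop56, a core protein of box C/D particles, fell 2.0-fold and Imp4, of the small subunit processome, 2.67-fold. Sbds, which releases a late assembly factor from the large subunit, rose 4.42-fold. Among 16 tested genes for RNA polymerase I and its regulators 6 fell (37.5%) and 0 rose, against 17.6% and 27.5% of all genes. With the actin ratio 4 fell (25%) and 0 rose, against 13.3% and 14.2% of all genes. Myc, a transcription factor that drives ribosomal gene expression, averaged 4.42 ± 0.36 at P40, under the limit of 5, and 8.76 ± 0.44 at P7 (adjusted p = 2.39e-05), and Taf1c, of the polymerase I selectivity factor, fell 2.99-fold (adjusted p = 0.00182). Of 23 tested genes of the TOR pathway and TOP regulators 8 rose (34.8%) and 2 fell (8.7%), against 27.5% and 17.6% of all genes. After scaling to the median 3 rose and 3 fell (13% each), against 22.3% and 22.8% of all genes. With the actin ratio 2 rose and 2 fell (8.7% each), against 14.2% and 13.3% of all genes. Deptor, an inhibitor of TOR, averaged 9.16 ± 0.09 at P40 and 5.79 ± 1.46 at P7 (adjusted p = 0.000153). Eif4ebp1, the repressor of the cap-binding protein that TOR inactivates, averaged 5.01 ± 1.42 at P40 and 9.66 ± 0.77 at P7 (adjusted p = 0.00114).

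More genes of the mitochondrial ribosome rose than fell. Of 76 tested mitochondrial ribosomal protein genes 36 rose (47.4%) and 5 fell (6.58%). Their median was 0.62, and of all genes 27.5% rose and 17.6% fell. After scaling to the median 25 rose (32.9%) and 6 fell (7.89%), against 22.3% and 22.8% of all genes, and the median was 0.40. Mrpl46 averaged 10.65 ± 0.13 at P40 and 9.12 ± 0.48 at P7 (adjusted p = 0.000132), and Mrpl52 averaged 11.46 ± 0.14 at P40 and 12.76 ± 0.41 at P7 (adjusted p = 0.000192). With the actin ratio in the fit 12 rose (15.8%) and 3 fell (3.95%), against 14.2% and 13.3% of all genes. The share that rose in that fit was thus near that of all genes. No member of the cytosolic family rose in any of these fits. Of 44 tested initiation and elongation factor genes 10 fell (22.7%) and 5 rose (11.4%), against 17.6% and 27.5% of all genes. Their median was 0.01, and -0.21 after scaling to the median. With the actin ratio 11 fell (25%) and 1 rose (2.27%), against 13.3% and 14.2% of all genes. Eif4a1, the helicase of the cap-binding complex, was 2.27-fold lower at P40 (adjusted p = 7.23e-06). Of 43 tested proteasome genes 10 rose (23.3%) and 2 fell (4.65%), against 27.5% and 17.6% of all genes. Their median was 0.12 (-0.10 after scaling to the median). With the actin ratio 2 rose and 2 fell (4.65% each), against 14.2% and 13.3% of all genes.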

How the data were processed

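RNA of hand-picked G42 interneurons was measured on 15 arrays, 3 animals at each of 5 ages. The authors deposited log2 values, 1 per probe set and array, made with GCRMA per the submitters' processing notes; its version is not given in the sources used here. Array medians lay between 3.21 and 3.46, and the number of arrays limits the precision. Values were used as deposited.

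The annotation gave 1 gene for 34945 of the 45101 probe sets, several for 932 and none for 9160, and 64 were controls. Of the single-gene probe sets 34741 matched a RefSeq gene, with 0 symbols changed. Each gene was read from its brightest single-gene probe set by mean over the arrays, and genes over 5 on at least 3 arrays, 9663 of 18193, were tested. limma 3.58.1 in R 4.3.3 fitted a means model over the 5 ages with trended empirical Bayes moderation and 10 residual degrees of freedom. All p-values are two-sided and adjusted by Benjamini-Hochberg over the tested genes of a contrast, and genes with an adjusted p below 0.05 are called. Probe sets other than those chosen were tested in a separate fit over 15477 probe sets. Folds need both means over 5, or are bounds against 5 if every array of 1 age was at or below it. The procedure was tested on simulated data. Python 3.11.15 with pandas 2.3.3 and matplotlib 3.10.9 made the figures.

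The ribosomal protein genes, the gene lists and the rule for naming genes were chosen with earlier results of these data known. The rule named the 12 largest falls and the 5 largest rises between P40 and P7, the 2 largest of each in each step, and, among genes that did not pass, the 3 brightest and the 2 with the largest difference. Stalk, tunnel, TOR-related and tissue-restricted genes were named whatever their values, and in each other list the 2 called genes of each direction whose adjusted p was smallest. Any other gene was named after its values were seen. Alternatives were a median shift per array, quantile normalization, other filters, a floor at 5, other choices of probe set, array weights, the actin ratio or the number of cells as a covariate, no variance trend, the replicate number as a block, the compared ages alone, and each array left out. Leaving out both P15 arrays with background-level hybridization controls, or all P25 arrays, was added after seeing the data.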

Additional observations from a re-analysis of the deposited data

How the results depend on the processing

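The count of ribosomal protein genes that fell between P40 and P7 was 31 and stayed between 27 and 33 when 1 array was left out; it was 11 of 15 tested when genes were read from plain _at probe sets only, which leaves fewer genes. None was called higher in this comparison under any of these settings. The F test count of 33 was 25 to 35 without 1 array and 12 with plain _at probe sets. The median log2 difference of -0.70 was -0.74 to -0.63 without 1 array, -0.92 after a median shift per array (which moved the median of all genes to -0.04) and -1.73 with plain _at probe sets.

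The single steps depended on the setting and the cause was not tested. The shares of all genes called in these steps were not compiled for each setting, so the counts describe the family only. Such shares can move with the setting. Between P40 and P7, 45.2% of all genes were called in the main fit, 49.7% with array weights and 27.4% with the actin ratio. The 3 calls between P10 and P7 were 0 to 5 without 1 array (5 without P7 or P10 replicate 1, 1 without P7 replicate 2, 0 without P10 replicate 2 or 3), 0 with no filter, with plain _at probe sets and with the compared ages alone, 1 after a median shift, without the variance trend and without both P15 arrays, and 6 with array weights. The 2 calls between P15 and P10 were 0 to 7 without 1 array (7 without P10 replicate 3, 1 without P15 replicate 2, 0 without P10 replicate 1 or 2 or P15 replicate 3), 5 after quantile normalization, 7 after a median shift, 9 with array weights (7 lower and 2 higher), 1 with no filter and without the trend, and 0 with either covariate, without both P15 arrays and with the compared ages alone. The 4 calls between P25 and P15 were 0 to 6 without 1 array (2 without P15 replicate 1 or P25 replicate 3, 1 without P15 replicate 2 or 3, 0 without P25 replicate 1 or 2), 14 with array weights (13 lower and 1 higher), 0 without both P15 arrays, 1 with plain _at probe sets and without the trend, and 2 after quantile normalization, a median shift, no filter, the mean of probe sets and either covariate. The 0 calls between P40 and P25 remained 0 without any 1 array and were 3 with no filter (2 lower and 1 higher) and 8 with array weights (3 lower and 5 higher).

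Replicate numbers did not pair the arrays: the correlation of same-numbered arrays' deviations had a median of -0.0664 over 30 pairs (-0.405 to 0.275). With the replicate block the count between P40 and P7 was 31, and in each of the 3 steps up to P25 it was 1. Without P7 replicate 2, Rpl27, Rpl39, Rps10 and Rps27l lost their call between P40 and P7, and without P40 replicate 1 Rps10 and Rps27l did. Setting values under 5 to 5 gave Rpl12 a difference of -1.91 and Rps6 one of -1.36, in place of -2.60 and -2.16. With 3 arrays per age and standard errors of 0.102 to 0.538, small differences such as that of Rpl4 cannot be resolved.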
